A study of Micromonas commoda with 15 samples.

Results

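In cultures of the marine green picoalga Micromonas commoda, 145 gene models stood at or below 0.5 of their control level in all 4 metal exposures of the series. They are 1.41% of the 10300 models in the count table. The members were chosen by level: a mean of 1 to under 1000 CPM in control cultures, a mean of at least 5 CPM over the 5 group means, and a log2 ratio to control of at most -1 in every exposure. CPM are reads scaled to a common library size after TMM, which corrects for composition, and the ratio was taken after adding 0.5 CPM to both sides. Of 7657 models within that range of abundance, 18.7% met the fold criterion with Fe2O3 particles, 6.07% with FeCl3, 14.8% with ZnO particles and 6.56% with ZnSO4, and 1.89% met it in all 4. Turning the sign of the rule round gave 168 models at or above 2 times their control level. Since each exposure was set against control to choose the members, their distance from control is given as a description and was not tested, whereas the differences among the 4 exposures were tested, with the same exposure values having set the choice of members.

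The study had 5 groups of 3 libraries each, all from strain RCC299 grown in L1 medium at 20 °C under 12 h of light and 12 h of dark. For 48 h the iron groups had received Fe2O3 nanoparticles (3e-05 M, given as 2.4 mg/L iron) or FeCl3 at the equivalent iron concentration. The zinc groups had received, also for 48 h, ZnO nanoparticles (1e-05 M, given as 0.8 mg/L zinc) or ZnSO4 at the equivalent zinc concentration. The control cultures had received none of these additions. Iron and zinc were dosed differently, so a comparison between the metals is not one of equal amounts, and the mass and molar values in the labels were not reconciled here. The libraries were made from poly(A)-selected RNA of whole cultures, so fewer transcripts per cell and a smaller share of a kind of cell cannot be told apart. Replicates are numbered libraries of one group, and nothing states that they were grown separately, so p-values measure the spread between these libraries, which may be technical.

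Micromonas is among the smallest free-living eukaryotes, a prasinophyte alga with a single chloroplast and a single mitochondrion and a compact nuclear genome. Iron serves such cells in the electron carriers of photosynthesis and respiration, and zinc serves in enzymes such as carbonic anhydrase and in zinc finger proteins. Both are nutrients of the medium as well as stressors in excess. In seawater ZnO particles release zinc ions as they dissolve, while ferric iron is poorly soluble and tends to precipitate. The deposited identifiers are not paired with gene names, and 0 of the 10300 matched the RefSeq table of the strain, so the roles of the 145 models are not given, 3 identifiers are printed, and other members are described by their values alone.

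Library totals ran from 33473041 reads in control replicate 3 to 48969454 in FeCl3 replicate 1. All 145 members passed the filter on low counts, and none of their values rested on fewer than 16 reads in an exposed library or 264 in a control library. TMM factors were lowest in control replicate 1, at 0.704, and highest in ZnSO4 replicate 3, at 1.34. FeCl3 replicate 1 stood apart from the other FeCl3 libraries in the members: it was the lowest of the 3 in 136 of 145. Without it the median log2 ratio of the members to control with FeCl3 was -1.35, and 15 members were at least 4-fold lower with FeCl3. Counts of calls that use FeCl3 are also given without it. Every fit without a library computed its scaling anew, so the loss of the library and a change of scaling were not told apart. The median member had a coefficient of variation of 20.6% among FeCl3 libraries and of 6.82% between FeCl3 replicates 2 and 3, while the medians were 12.7% with Fe2O3 particles, 7.54% with ZnO particles, 8.34% with ZnSO4 and 18.6% in controls. Over all 7905 models that averaged 5 CPM or more, the medians were 14.4%, 12.9%, 6.52%, 10.2% and 17.1% for Fe2O3 particles, FeCl3, ZnO particles, ZnSO4 and control.

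The members lay far lower with particles than with salts. Their median level was 12.8% of control with Fe2O3 particles and 15.7% with ZnO particles, against 35.5% with FeCl3 and 42.3% with ZnSO4. In log2 ratios to control these medians were -2.97 with Fe2O3 particles (range -5.23 to -1.36), -1.50 with FeCl3 (-3.05 to -1.02), -2.67 with ZnO particles (-4.88 to -1.10) and -1.24 with ZnSO4 (-3.62 to -1.01). At least 4-fold lower levels were held by 128 members with Fe2O3 particles, 21 with FeCl3, 117 with ZnO particles and 6 with ZnSO4, and only 2 members reached that in all 4.

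Library by library, the median log2 ratio of the members to the control mean was -2.97, -2.95 and -3.07 with Fe2O3 particles, and -1.87, -1.40 and -1.33 with FeCl3, for replicates 1 to 3 in that order. It was -2.68, -2.71 and -2.61 with ZnO particles, -1.29, -1.25 and -1.21 with ZnSO4, and -0.02, -0.20 and 0.14 in controls. Both particle groups were thus tight and far below both salts, FeCl3 replicate 1 lay nearer the particles than its 2 companions did, and control replicate 2 was the lowest control in 94 members. In 143 of 145 members the lowest control library stood above all 12 exposed libraries, which was so for 14.4% of all 10012 models tested. The rule had already set every exposure mean of the members well below their control mean, so the choice itself favours such a separation. The share over all models, which were not chosen in that way, is no measure of what the choice gives.

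**Figure D1:**
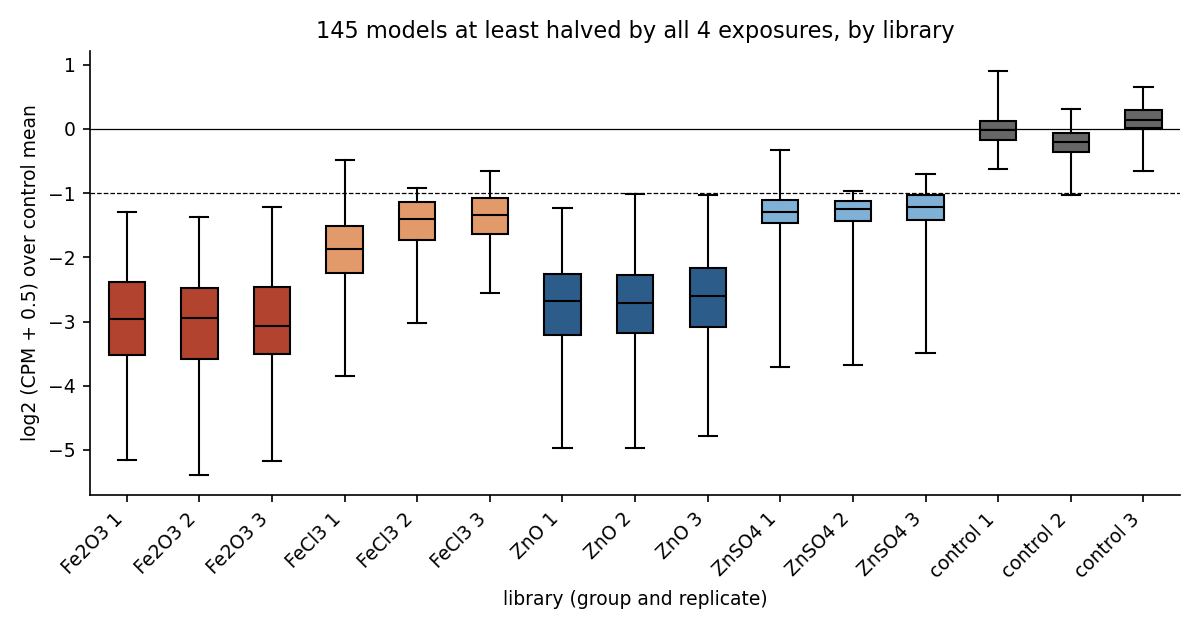
Log2 ratio of each member's CPM to its control mean (after adding 0.5 CPM) in each of the 15 libraries, with the box over the middle 50% of the 145 members, the line at the median and whiskers to the extremes; the dashed line marks 0.5 of control. The Fe2O3 particle libraries have medians of -2.97, -2.95 and -3.07, and the ZnSO4 libraries -1.29, -1.25 and -1.21.

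Summed over the members, the same order appeared in the share of each library they took. The 145 models held 0.375% ± 0.0327 of scaled reads with Fe2O3 particles, 0.821% ± 0.164 with FeCl3, 0.441% ± 0.0155 with ZnO particles and 0.884% ± 0.0231 with ZnSO4, against 2.23% ± 0.252 in controls (SD, n = 3 each). FeCl3 replicate 1 was again the lowest of its group, at 0.634% against 0.888% and 0.942%. The 10 members with the most reads held 30.3% of the members' sum in controls.

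Among the members, wlab.248661.1 and wlab.233596.1 lay lowest on average over the 4 exposures. The model wlab.248661.1 was read at 6.28, 6.96 and 6.70 CPM in the Fe2O3 particle libraries, 14.8, 26.6 and 37.3 in the FeCl3 libraries, 6.81, 6.53 and 7.75 in the ZnO particle libraries, 16.5, 16.9 and 19.3 in the ZnSO4 libraries, and 185, 192 and 286 in the control libraries. Every exposed library was below every control, with the lowest control 4.94 times the highest exposed value, and the 3 FeCl3 libraries covered a wider range than those of any other exposure. The model wlab.233596.1 had 11.2, 9.48 and 11.1 CPM with Fe2O3 particles, 31.1, 59.8 and 83.5 with FeCl3, 12.8, 13.8 and 14.6 with ZnO particles, 43.1, 35.6 and 36.8 with ZnSO4, and 429, 336 and 484 in controls. Its particle libraries also lay below all libraries of both salts, and its lowest control was 4.02 times its highest exposed value.

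Tested between exposures, both models were lower with the particles than with the salt of the same metal. For wlab.248661.1 the log2 fold change of Fe2O3 particles over FeCl3 was -1.97 (SE 0.256) and that of ZnO particles over ZnSO4 was -1.31 (SE 0.252), and edgeR's quasi-likelihood test gave adjusted p-values of 1.2e-05 and 0.000673. For wlab.233596.1 they were -2.45 (SE 0.261) and -1.48 (SE 0.253), where edgeR's adjusted p-values were 1.82e-06 and 0.000261. Neither passed the threshold between the salts, where ZnSO4 over FeCl3 gave -0.58 (SE 0.244, edgeR adjusted p = 0.0563) and -0.59 (SE 0.246, edgeR adjusted p = 0.0531), nor between the particles. Without FeCl3 replicate 1 both were called lower with ZnSO4 than with FeCl3, at -0.66 and -0.70.

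**Figure D2:**
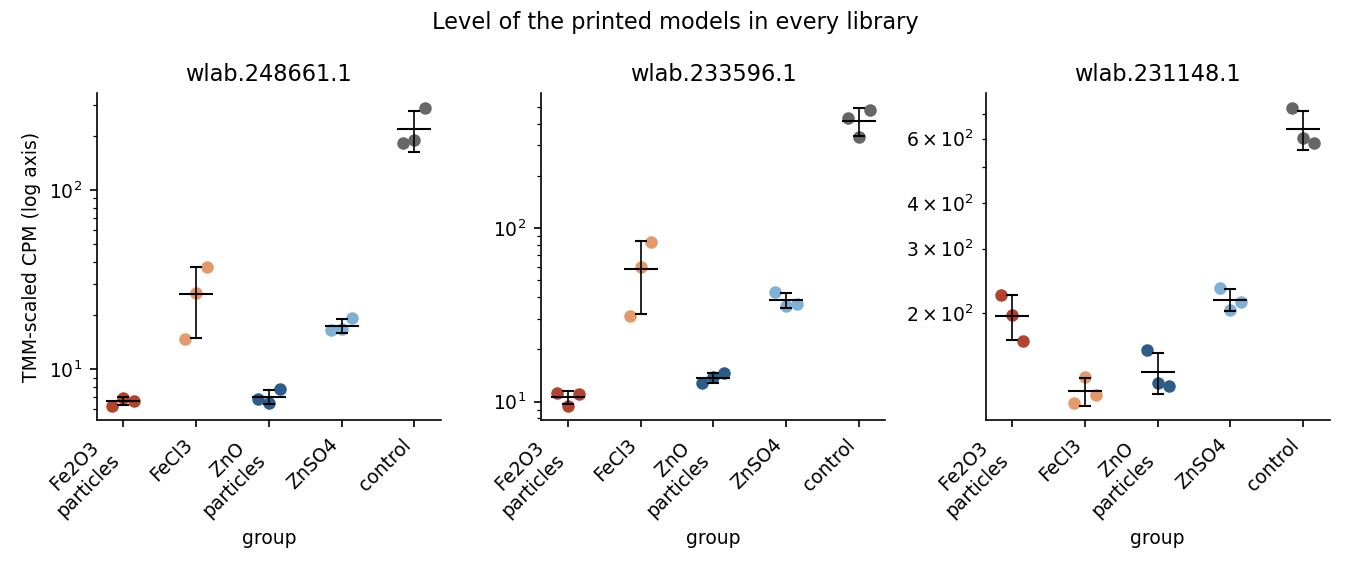
TMM-scaled CPM of the 3 printed models in every library on log axes, with points for libraries, wide ticks for group means and bars for the SD. The first 2 models lie lowest with both particles, while wlab.231148.1 is lowest with FeCl3, at a mean of 122 CPM against 637 CPM in controls.

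How many models meet the rule is set mainly by the salts and by the scaling. Within 0.1 log2 units inside the threshold lay 37 members with ZnSO4 and 16 with FeCl3, against 0 with either kind of particle. The member nearest to it had a log2 ratio of -1.01 with ZnSO4, and the nearest model outside, which met the rule in the other 3 exposures, had -0.998. A further 37 models failed only with ZnSO4 and by less than 0.1, and 13 failed only with FeCl3 by less than 0.1. TMM compares every library with one of them, which by default was Fe2O3 particles replicate 3. With the other libraries as that one the count ran from 70, with ZnSO4 replicate 1, to 148, with Fe2O3 particles replicate 1, and with a control library it was 74 or 75. With total counts only it was 18, 17 of them members. Under total counts the 145 members lay below control in all 4 exposures. Their median log2 ratios were then -2.73 (Fe2O3 particles), -1.24 (FeCl3), -2.28 (ZnO particles) and -0.69 (ZnSO4). They also lay below control under every other scaling tried. Scaling moves all models of a library alike, and the members were chosen at -1 or lower. Their place below control is therefore no separate test.

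**Figure D3:**
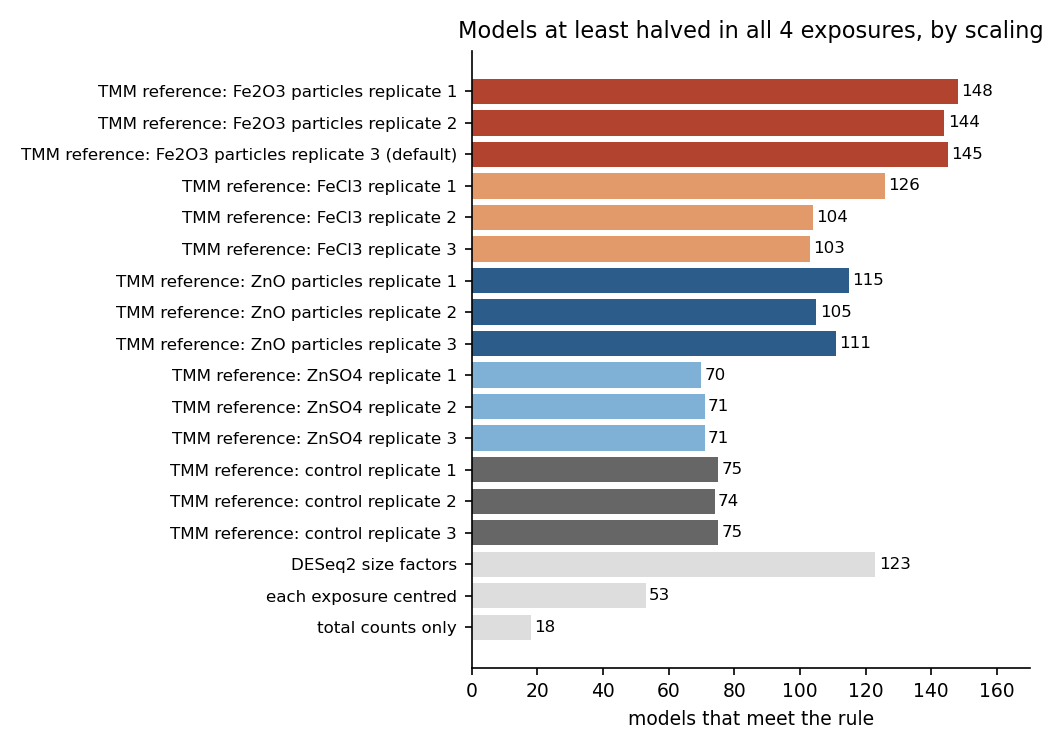
Number of models that meet the rule (horizontal axis) by scaling: TMM with each of the 15 libraries as the one the others are compared with, DESeq2 size factors, each exposure centred on its median model, and total counts only. The count is 145 by default, 70 to 75 with a ZnSO4 or control library, and 18 with total counts only.

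A library can be read in models chosen without its values in the group means, though it still took part in the scaling. The members were chosen again without one library, with the scaling of all 15 kept, and the held-out library was then read. Held-out Fe2O3 particle libraries stood at or below 0.5 of the control mean in 99.3% to 100% of the models chosen without them, against 17.2% to 23.9% of all models in the same range of abundance. For held-out ZnO particle libraries it was 100% in each case, against 14.5% to 15.8%. Held-out FeCl3 replicates 1, 2 and 3 gave 97.7%, 88.5% and 73.5%, against 13.5%, 5.28% and 4.23%, and ZnSO4 replicates 1, 2 and 3 gave 78.8%, 95.1% and 75.3%, against 6.70%, 6.77% and 9.14%. A held-out control was asked to be at least 2 times every exposure mean: control replicates 1, 2 and 3 met this in 61.5%, 35.2% and 84.5% of the models, against 3.82%, 1.14% and 2.80%. All held-out libraries share the scaling and the remaining libraries with the choice. Held-out exposed libraries were also read against the control mean that had chosen the models, so these shares are descriptions. The shares over all models of that range, which were not chosen in that way, are no measure of what the choice gives. The controls, and above all replicate 2, moved the set most: leaving out control replicate 2 gave 213 models, and leaving out control replicate 3 gave 116.

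The direct comparison of each particle with its salt showed the members lower with the particle in both metals. With Fe2O3 particles 133 members (91.7%) were lower than with FeCl3 and 1 was higher, where 27.7% of all 10012 models were lower and 27.5% higher by edgeR's quasi-likelihood test at an adjusted p under 0.05. The median log2 fold change of the members was -1.52, a 2.86-fold difference, against -0.02 over all models, and 110 of the called members were lower by at least 2-fold. With ZnO particles 130 members (89.7%) were lower than with ZnSO4 and 0 were higher, where 20.4% of all models were lower and 22.6% higher. Here the median of the members was -1.39, against 0.01 over all models, and 103 called members were lower by at least 2-fold. The counts of 110 and 103 have no share over all models at that cut, and 27.7% and 20.4% are not their background. The same 133 lower and 1 higher count was found for iron without FeCl3 replicate 1. The rule cuts all 4 exposures at one level that fewer models reached with a salt than with a particle, and the salts lie nearer to it. The shares over all models, which were not chosen in that way, are no measure of what such a choice gives by itself. Left to the salts alone, the rule gave 148 models, 145 of them the members, and left to the particles alone it gave 1009. Of the 148, 133 were called lower in the iron comparison and 130 in the zinc comparison. Their particle values had no part in the fold criterion, but did enter the mean over all groups that bounds the range of abundance. The 148 include all 145 members and give the same counts of lower calls, so they are no separate test. The salt values in each contrast also chose them, so what such a choice gives by itself was not tested. The 2 contrasts share no library, yet they are not independent. The members were chosen on all 4 exposures against the same controls. Replicate numbers were also taken as paired between Fe2O3 particles and both zinc groups. Both contrasts called 124 members (85.5%) lower, which held for 12.9% of all models. The log2 fold changes of the 2 contrasts had r = 0.586 over the 145 members and 0.467 over all models.

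Library by library, in 133 members every Fe2O3 particle library lay below every FeCl3 library (29.3% of all models tested), and in 137 every ZnO particle library lay below every ZnSO4 library (30% of all models). Both particle means lay below both salt means in 140 members (96.6%), and in 27.1% of all models. The exposure with the lowest mean was Fe2O3 particles in 120 members, ZnO particles in 24 and FeCl3 in 1, and over all models these were the lowest in 28.5%, 13.6% and 26.5%. The highest of the 4 means belonged to ZnSO4 in 99 members, FeCl3 in 45 and ZnO particles in 1, or 68.3%, 31.0% and 0.690% of the members, against 27.2%, 31.8% and 14.4% of all models. The members were chosen on these same exposure means. None of these shares over all models measures what such a choice gives by itself.

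The exception was wlab.231148.1, the one member called higher when Fe2O3 particles were set against FeCl3, and the one in which FeCl3 gave the lowest mean. It was picked by that call, so its values in the iron comparison are no separate test. It had 224, 198 and 168 CPM with Fe2O3 particles, 114, 134 and 119 with FeCl3, 159, 129 and 127 with ZnO particles, 235, 205 and 214 with ZnSO4, and 725, 602 and 583 in controls. The Fe2O3 particle libraries all lay above the FeCl3 libraries, whereas the ZnO particle libraries all lay below the ZnSO4 libraries. Its log2 fold change was 0.69 (SE 0.142) for Fe2O3 particles over FeCl3 and -0.65 (SE 0.142) for ZnO particles over ZnSO4, with edgeR adjusted p-values of 0.000739 and 0.00174. Between the salts it was 0.83 (SE 0.142), higher with ZnSO4.

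**Figure D4:**
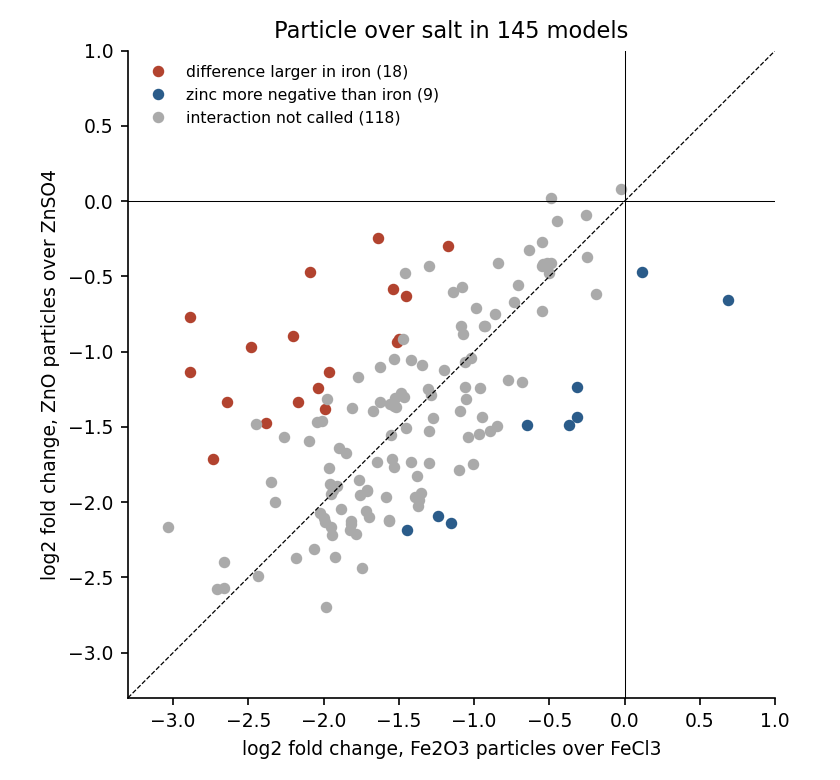
Log2 fold change of ZnO particles over ZnSO4 (vertical) against that of Fe2O3 particles over FeCl3 (horizontal) in the 145 members, coloured by the test of the difference between the 2; the dashed line marks equal values. Most members lie below 0 on both axes, with 18 called above the line and 9 called below it.

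In most members the gap between particle and salt was not shown to differ between the metals. The interaction, which is the zinc gap minus the iron gap on the log2 scale, was called in 27 members, above 0 in 18 and below 0 in 9, where 14.4% of all models were called higher and 13.9% lower. Both shares of the members, 12.4% and 6.21%, were thus near or below those over all models, which do not measure what the choice gives. After centring exposures on the median model the split was 11 higher and 14 lower. The counts also moved when single libraries were left out and the scaling was computed anew. The 18 became 27 without FeCl3 replicate 1, 10 without ZnSO4 replicate 2, and 11 without ZnSO4 replicate 3 or ZnO particles replicate 2 or 3. The 9 became 4 without Fe2O3 particles replicate 1. The parts of the library and of the scaling in these moves were not told apart. In the 18 the median gap was -2.06 for iron and -0.95 for zinc, so that iron had the larger one in each. In the 9 the medians were -0.37 for iron and -1.48 for zinc.

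The largest interaction, 2.12 (SE 0.336, edgeR adjusted p = 0.000339), belonged to the member that was the fourth lowest on average. As the pick was by this value, the p-value is no separate test of the member. Its levels were 6.37, 7.60 and 7.67 CPM with Fe2O3 particles, 49.5, 53.2 and 58.2 with FeCl3, 6.75, 9.30 and 10.9 with ZnO particles, 20.1, 13.6 and 12.4 with ZnSO4, and 142, 126 and 72.8 in controls. FeCl3 alone left it near the limit of the rule, at a log2 ratio of -1.08, while the other 3 exposures put it between -3.89 and -2.84. Its log2 fold change was -2.89 (SE 0.250) for Fe2O3 particles over FeCl3 and -0.77 (SE 0.237) for ZnO particles over ZnSO4.

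Between the salts the members divided. With ZnSO4 51 members (35.2%) were higher and 9 (6.21%) lower than with FeCl3, where 22.7% of all models were higher and 30.4% lower, and 85 were not called. Both salts also chose the members, so the shares over all models are no measure of what the choice gives. The median of the members was 0.24, against -0.09 over all models, and with scaling by library totals alone 79 were higher and 2 lower. In the 51 higher with ZnSO4 the median log2 ratio to control was -1.16 with ZnSO4 and -1.92 with FeCl3, and in the 9 lower it was -1.95 with ZnSO4 and -1.23 with FeCl3. In these 2 lists of members, the longer first, the median ratios were -3.33 and -3.44 with Fe2O3 particles, and -2.90 and -3.27 with ZnO particles. Without FeCl3 replicate 1 the calls were 54 higher and 10 lower. The 9 became 4 without ZnSO4 replicate 1 or 2, and 5 without any 1 of the ZnO particle libraries. Scaling was computed anew in each of these fits, and its effect on the counts was not tested.

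The widest such gap among the 51 was a log2 fold change of 1.40 (SE 0.218, edgeR adjusted p = 8.44e-05). This value picked the member, so the p-value is no separate test of it. That member had 34.3, 38.2 and 36.9 CPM with ZnSO4, 8.66, 15.1 and 17.8 with FeCl3, and 77.9, 57.8 and 89.0 in controls. FeCl3 replicate 1 was the lowest of the 3 here too, and all ZnSO4 libraries lay above all FeCl3 libraries. It had 8.72, 7.40 and 8.60 CPM with ZnO particles and 7.52, 5.78 and 5.43 with Fe2O3 particles, and of these 6 libraries only ZnO particles replicate 1 lay above a salt library, FeCl3 replicate 1. Among the 9 lower with ZnSO4 the member with the largest interaction came first, at -1.80 (SE 0.237), and the other 8 lay between -0.84 and -0.47.

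**Figure D5:**
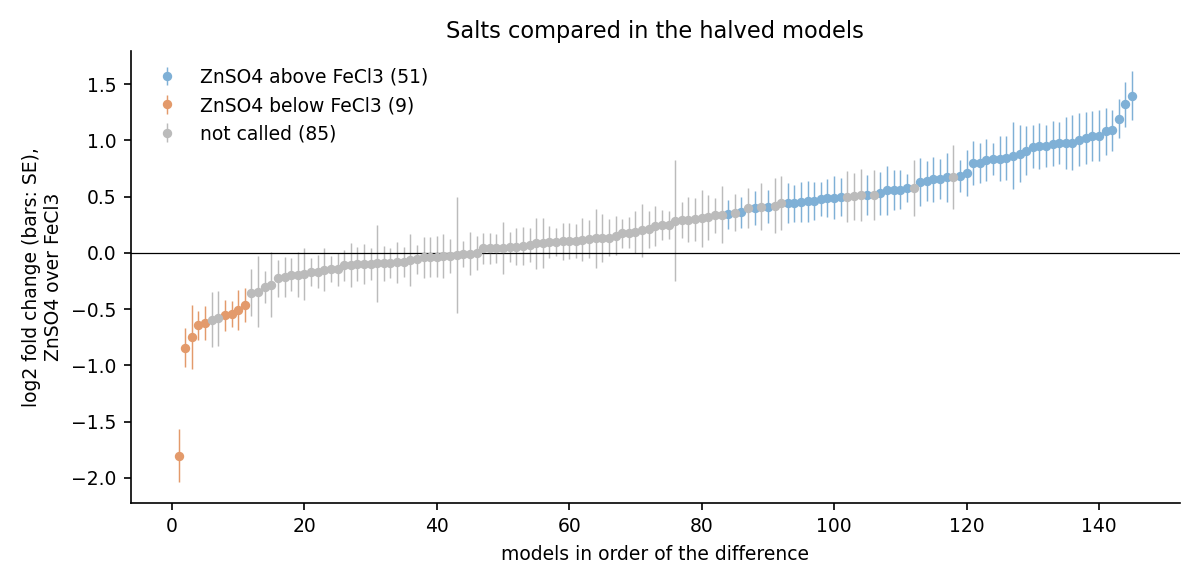
Log2 fold change of ZnSO4 over FeCl3 (vertical, bars for the SE) in the 145 members, set in order of the value. Of the members 51 were called higher with ZnSO4, 9 lower and 85 neither, and the lowest value, -1.80, stands apart from the rest.

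Between the particles 110 members were not called. With ZnO particles 31 members (21.4%) were higher than with Fe2O3 particles and 4 (2.76%) lower, where 7.49% of all models were higher and 11.7% lower. Both particles also chose the members, so these shares over all models are no measure of what the choice gives. The median log2 fold change was 0.32, against 0.01 over all models. Of the 31, 7 differed by at least 2-fold, a cut for which no share over all models was taken. Without FeCl3 replicate 1, a library outside this contrast, 52 were called higher, and total counts only gave 58. The scaling was computed anew without that library, and its effect on the 52 was not tested. The widest gap, 1.28 (SE 0.189, edgeR adjusted p = 0.000307), was in a member with 12.0, 14.1 and 12.1 CPM with ZnO particles and 5.56, 6.05 and 4.18 with Fe2O3 particles, against 76.0, 49.4 and 53.5 in controls. As this gap picked the member, its p-value is no separate test. The member had 24.6, 24.7 and 21.9 CPM with ZnSO4 and 19.3, 24.9 and 28.7 with FeCl3, so that the salts overlapped where the particles did not. Of the 31 members, 27 were also lower with ZnO particles than with ZnSO4, and all 31 were lower with Fe2O3 particles than with FeCl3.

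For 6 members neither particle was called different from its salt, which held for 31.2% of all models. That share is no measure of what the choice of members gives. One of the 6 had 17.9, 20.4 and 17.0 CPM with Fe2O3 particles, 12.1, 18.8 and 25.5 with FeCl3, 23.2, 28.4 and 28.0 with ZnO particles and 19.7, 26.6 and 29.3 with ZnSO4, against 41.4, 54.4 and 77.0 in controls. All its exposed groups overlapped with at least one other, and its log2 fold changes were -0.02 (SE 0.248) for Fe2O3 particles over FeCl3 and 0.08 (SE 0.246) for ZnO particles over ZnSO4. These errors leave room for differences that the 3 libraries of a group cannot show.

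In 2 members a control library lay below an exposed one, and in both the libraries differed by replicate number. The first had 14.5, 4.72 and 4.56 CPM with Fe2O3 particles, 23.8, 10.7 and 14.7 with FeCl3, 12.8, 5.97 and 6.81 with ZnO particles, 32.1, 15.2 and 13.1 with ZnSO4, and 101, 26.1 and 34.3 in controls. The second had 37.6, 16.0 and 14.4 CPM with Fe2O3 particles, 95.6, 50.0 and 50.9 with FeCl3, 48.9, 21.0 and 23.6 with ZnO particles, 107, 48.9 and 38.4 with ZnSO4, and 246, 71.0 and 85.2 in controls. In each group replicate 1 was the highest of the 3, by at least 1.5 times. Every exposed library was below the control library of the same number, though numbers were not taken as paired between controls and any exposure. Both members were picked for this overlap, so their values with the block are no test of pairing. With the replicate number as a block, the log2 fold change of ZnO particles over ZnSO4 in the first was -1.21 (SE 0.192, edgeR adjusted p = 0.000241), against -1.23 (SE 0.552, edgeR adjusted p = 0.0836) without it. In the second it was -1.01 (SE 0.153, edgeR adjusted p = 0.000154) with the block, against -1.05 (SE 0.523, edgeR adjusted p = 0.119) without it.

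Beyond their levels the members shared few features that the files record. None of the 145 carried the mark for a duplicated model, which 29 models carry. The table appears to run in chromosome order, since 45 identifiers name one of 15 chromosomes and their numbers never step back down the table. Along it the members were spread, with 7 to 21 in each of 10 equal stretches. Of the 290 rows next to a member 4 were themselves members, a share of 1.38%, beside 1.41% in the whole table, and within 5 rows on either side the share was 1.79%. The 203 neighbouring models within the same range of abundance that were not members had median log2 ratios to control of -0.14 with Fe2O3 particles, -0.11 with FeCl3, -0.22 with ZnO particles and -0.25 with ZnSO4. Over all models of that range the medians were -0.08, -0.04, -0.12 and -0.29 for the same exposures.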

How the data were processed

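Messenger RNA was sequenced in 15 libraries, and the deposited file holds whole-number counts per gene model, not normalized by the authors as far as the values show. Per the submitters' processing notes, the programs were RSEM 1.3.0, STAR, Trim Galore 0.4.0 for adapters and CASAVA 2.17, while the deposited table is named for HTSeq, so the counting program is not settled. For the genome build, annotation and strand setting, nothing is given in the sources used here.

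Testing was done by edgeR 4.0.16 (R 4.3.3), with limma 3.58.1 and DESeq2 1.42.0 as alternatives. The members and the tests were chosen with earlier results of these data known. Levels and the rule used TMM on all rows. Tests used filterByExpr with a minimum count of 10, which kept 10012 models, TMM on those, and 1 quasi-likelihood fit of the 5 groups. The Benjamini-Hochberg adjustment ran over all models tested, with a threshold of 0.05. An SE is the size of the log2 fold change over the root of F. The steps were tested on simulated data. A rule fixed with the tests picked the printed identifiers: the 2 members lowest on average over the exposures, and up to 2 called higher with particles than with salts, of which there was 1.

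The labels number the replicates 1 to 3 in each group without saying what a number stands for. Deviations from the group means correlated for each number between ZnO particles and ZnSO4 (0.309, 0.277 and 0.334) between Fe2O3 and ZnO particles (0.501, 0.260 and 0.314), and between Fe2O3 particles and ZnSO4 (0.540, 0.135 and 0.722), which was taken as pairing there. In no other pair of groups did every number reach 0.1, the least correlation asked for. ZnO particles and controls gave 0.335, 0.091 and 0.097, and ZnSO4 and controls 0.471, 0.133 and 0.048. The main tests left the replicate number out, so their p-values do not use the pairing. Calls with the number as a block are given below. Holding out a library, changing the library that TMM compares with, and choosing models by the salts or particles alone were added after the data were seen.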

Additional observations from a re-analysis of the deposited data

Results flagged for a closer look

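In 27 members the particle-to-salt gap of zinc differed from that of iron by the test of the interaction, with 18 higher and 9 lower values of the zinc gap minus the iron gap. These are 12.4% and 6.21% of the members, against 14.4% and 13.9% of all models tested, and centring exposures on the median model gave 11 and 14. Among the printed models this held for wlab.231148.1, with an interaction of -1.34 on the log2 scale (SE 0.201, edgeR adjusted p = 0.000214). The model was picked by its iron contrast, which is part of the interaction, so this is no separate test. Its ZnO particle libraries lay below its ZnSO4 libraries in 3 of 3 while its Fe2O3 particle libraries lay above its FeCl3 libraries in 3 of 3.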

How the results depend on the processing

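The 145 members became 125 with a pseudocount of 2, 136 with medians of 3 libraries, 123 with DESeq2 size factors, 53 after centring exposures on the median model, 18 with total counts only and 2 with a 4-fold threshold. With TMM set against ZnSO4 replicates 1, 2 and 3 they were 70, 71 and 71, and against control replicates 1, 2 and 3 they were 75, 74 and 75. Leaving out 1 library with factors computed anew gave 66 to 213. The low values, 66 without FeCl3 replicate 1, 70 without Fe2O3 particles replicate 3, 74 without ZnO particles replicate 1, 70 without ZnSO4 replicate 2 and 87 without ZnSO4 replicate 3, came where TMM took another library to compare with; with the factors kept they were 129, 144, 145, 142 and 146. The members' share of reads with total counts only was 1.82% in controls, 0.474% with ZnO particles and 1.05% with ZnSO4, and with DESeq2 size factors 0.910% with ZnSO4. Counts of called members without 1 library were 129 to 134 lower for Fe2O3 particles over FeCl3, 130 to 138 lower for ZnO particles over ZnSO4, 21 to 52 higher and 1 to 4 lower for ZnO over Fe2O3 particles, 48 to 72 higher and 4 to 10 lower for ZnSO4 over FeCl3, and 10 to 27 higher and 4 to 12 lower for the interaction. The 1 lower between the particles was without ZnO particles replicate 2. Factors were also computed anew in these fits, so scaling and the loss of a library were not told apart. Fe2O3 particles were the lowest exposure in 114 to 126 members, ZnSO4 the highest in 99 to 127, and both particles lay below both salts in 136 to 142. Total counts only gave 58 higher for ZnO over Fe2O3 particles, and 79 higher and 2 lower for ZnSO4 over FeCl3. Centring gave 5 lower between the salts, and 11 higher and 14 lower in the interaction, where fitting only the groups compared gave 17 lower. In the cases without a change of the library compared with, the cause was not tested.

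With the replicate number as a block, 135 members were lower with Fe2O3 particles than with FeCl3, 134 with ZnO particles than with ZnSO4, 34 were higher and 5 lower with ZnO than with Fe2O3 particles, 55 higher and 11 lower with ZnSO4 than with FeCl3, and 22 higher and 10 lower in the interaction. No count moved by over 1.5 times. Of the 2 members whose controls overlap exposed libraries, the first was then also called for Fe2O3 particles over FeCl3 (-1.19, edgeR adjusted p = 0.00017, against 0.116 without the block) and the second for ZnO over Fe2O3 particles (0.50, edgeR adjusted p = 0.036, against 0.582). Among the printed models wlab.248661.1 was then called between the salts, at -0.53. ZnO particles over ZnSO4 had 0 members called higher by edgeR, DESeq2 and limma voom alike. Among the printed models no alternative turned a direction, and wlab.231148.1 was not called between the particles (-0.51) in 4 of the fits without 1 library, at -0.51 to -0.40. The interaction of wlab.233596.1 was called by DESeq2 at 0.89, without FeCl3 replicate 1 at 1.13 and without control replicate 2 at 0.97, and that of wlab.248661.1 without FeCl3 replicate 1 at 0.80. Between the salts wlab.233596.1 was also called without control replicate 2 at -0.60, and wlab.248661.1 without control replicate 3 at -0.58.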

Other observations

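The replicate number left a trace in the members and in the table as a whole. Of the 10012 models tested, 300 had their highest library in replicate 1 in all 5 groups, 32 in replicate 2 and 97 in replicate 3, and 253, 25 and 47 had their lowest there. In 5 models replicate 1 was at least 1.5 times both other libraries in every group, and 2 of those 5 are the members whose controls and exposed libraries overlap. In 10 further models it was lower by as much in every group, none of them a member. Replicate 3 was the highest library in all 5 groups for 13 members, and replicate 1 the lowest for 12.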
